A study of Mus musculus with 4 samples.

Results

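The apical polarity genes examined here are 10 genes of the Crumbs and PAR complexes, chosen by name from the 22095 loci in the deposited expression table: *Crb1*, *Crb2*, *Crb3*, *Mpp3*, *Mpp4*, *Mpp5*, *Inadl*, *Pard3*, *Pard6a* and *Prkci*. All 10 were listed with a successful estimate in every library and passed the filter for testing, a mean of at least 1 FPKM (read counts scaled by transcript length and by sequencing depth). They were measured by RNA-seq of whole retinas, in 2 libraries from *rd7* mice and 2 from wild-type mice. The *rd7* animals carry a mutation of *Nr2e3*, the gene of a transcription factor that represses cone genes in developing rods, and both groups are labelled C57BL/6J. All animals were 3 weeks old, and each library pooled 8 retinas from 2 females and 2 males, so p-values reflect how much such pools vary. These data can show whether transcripts of the polarity machinery differ in level between the genotypes. The mutation is present in every cell of the animal, and the outer limiting membrane was not isolated. In whole retinas, fewer cells of a type and less RNA per cell cannot be told apart.

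The outer limiting membrane is a belt of adherens junctions between Müller cells and the inner segments of photoreceptors. Just above these junctions sits the Crumbs complex, in which the short cytoplasmic tail of a Crumbs protein binds the scaffold PALS1 (*Mpp5*), and PALS1 binds PATJ (*Inadl*). The PAR complex, made of PAR3, PAR6 and an atypical protein kinase C, works with it to set the apical side of the cell and to keep the junctions in place. Loss of Crumbs function in the mouse retina is known to break the outer limiting membrane and to fold the photoreceptor layer into rosettes, and the *rd7* retina is known for whorls and rosettes of the same layer.

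The Crumbs genes differ in the sequence before their start sites. The 250 bases upstream of the first annotated start near each deposited locus are shown for the 3 Crumbs genes, since the results turn on the contrast between *Crb3* and the other two. They were read from mm9, the build of the deposited loci, 5′ to 3′ on the gene's strand, at chr1:141273678-141273927 (minus strand), chr2:37631519-37631768 (plus strand) and chr17:57201374-57201623 (plus strand). Capitals mark CAGGTG or its reverse complement CACCTG, the E-box that repressors of epithelial genes are known to bind.
Crb1: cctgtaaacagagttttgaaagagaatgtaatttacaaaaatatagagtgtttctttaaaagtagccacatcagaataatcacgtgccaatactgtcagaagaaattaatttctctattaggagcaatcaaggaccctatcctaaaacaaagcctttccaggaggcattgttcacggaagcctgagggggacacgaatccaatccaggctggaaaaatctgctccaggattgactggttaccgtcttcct
Crb2: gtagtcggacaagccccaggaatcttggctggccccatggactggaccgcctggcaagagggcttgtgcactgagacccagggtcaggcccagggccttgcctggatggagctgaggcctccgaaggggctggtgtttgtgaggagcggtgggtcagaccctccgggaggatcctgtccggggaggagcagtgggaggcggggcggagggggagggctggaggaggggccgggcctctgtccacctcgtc
Crb3: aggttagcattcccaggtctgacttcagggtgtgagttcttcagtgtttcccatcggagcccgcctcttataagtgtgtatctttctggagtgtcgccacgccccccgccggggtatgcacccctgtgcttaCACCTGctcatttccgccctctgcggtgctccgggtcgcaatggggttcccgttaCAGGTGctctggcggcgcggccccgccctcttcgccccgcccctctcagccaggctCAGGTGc
The *Crb3* window held 3 of these E-boxes, whose first bases lay at -118, -63 and -7 relative to the start, and the windows of *Crb1* and *Crb2* held 0. Of 20723 windows of the same length placed by the same rule, 16.8% held at least 1 E-box and 0.256% held at least 3. The motif was chosen after the *Crb3* sequence had been read, so its frequency is a description. The cone-rod homeobox core TAATCC, searched on both strands, was in 6.26% of all windows and in none of these 3. The letters AAGTCA, a site bound by NR2E3, were found once on either strand in the *Crb3* window, as in 11.5% of all windows with at least 1 match. The *Crb2* and *Crb3* windows were rich in G and C, at 68.8% and 63.2%, and the *Crb1* window had 40.4%.

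In the polarity genes as a group, *Crb3* rose several-fold and the next largest difference was that of *Prkci*, at 0.45 on the log2 scale. At an FDR of 5%, 3 of the 10 were higher in *rd7* (*Crb3*, *Prkci* and *Pard3*) and 2 were lower (*Crb2* and *Mpp4*), by limma over all 12655 genes tested with Benjamini-Hochberg adjustment. Among all genes tested 46.4% were called, 37.6% higher and 8.8% lower, so the number of higher members is near what the table as a whole gives. The *rd7* and wild-type values did not overlap in 8 of 10 members, beside 76.6% of all genes tested. Their median log2 fold change was 0.10, against 0.15 for all genes. Scaling every library so that its median gene ratio was 1, here called median-ratio scaling, removed that shift of the whole table, and the members then had a median of -0.05, with 2 higher and 2 lower (19.7% and 19.6% of all genes). Quantile normalization gave 2 higher and 2 lower as well (18.6% and 19.0% of all genes). When values were adjusted for the GC content and length of exons, a step called the GC/length correction here, 12.4% of genes were higher and 15.0% lower (27.4% in all), *Crb3* was the only member still called higher, and *Crb1* and *Inadl* joined *Crb2* and *Mpp4* as lower. With either wild-type library left out fewer members were called, and fewer genes over the whole table as well. Without *rd7* replicate 1 more were called, both among the members and over the whole table.

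**Figure D1:**
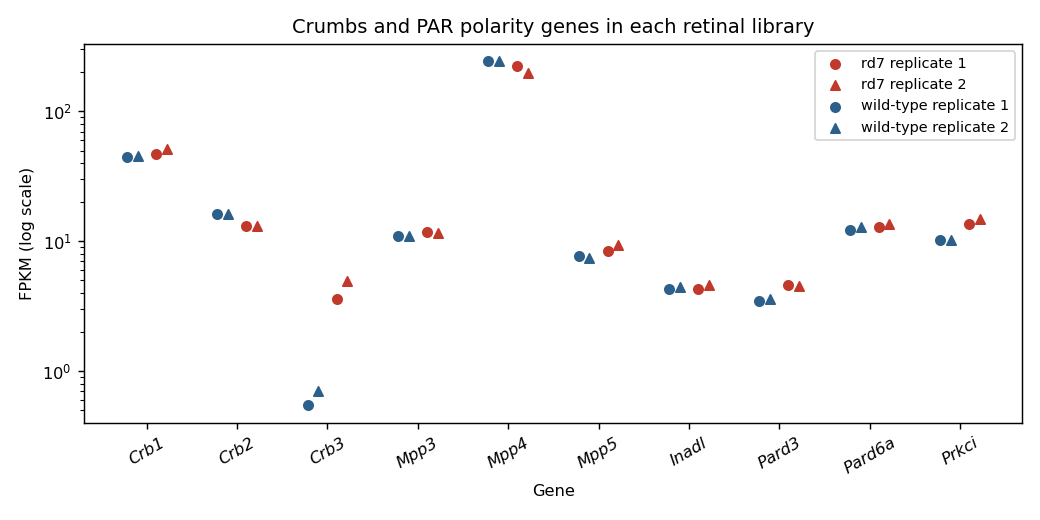
FPKM of the 10 polarity genes (log axis) in each library, with circles for replicate 1 and triangles for replicate 2. *Mpp4* lies highest in all 4 libraries, *Crb3* lies lowest in wild-type retinas at 0.544 and 0.701 FPKM, and only *Crb3* shows a gap between genotypes that is wide on this scale.

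The Crumbs genes encode the transmembrane proteins of the complex. *Crb3* (chromosome 17, 57201700 to 57205337, plus strand) encodes a small Crumbs protein with almost no extracellular part, best known from epithelia. It was listed at 3.58 and 4.91 FPKM in *rd7* replicates 1 and 2 and at 0.544 and 0.701 FPKM in wild-type replicates 1 and 2. Both *rd7* pools were far above both wild-type pools, and the lower *rd7* value was 5.75 times the wild-type mean. The means were 4.24 ± 0.936 (SD, n = 2) and 0.622 ± 0.111 FPKM (SD, n = 2), a 6.82-fold difference and a log2 fold change of 2.58 (adjusted p = 0.000942 from limma, standard error 0.20). Among the 12655 genes tested it had the 30th largest log2 fold change, and 2.04% of them were called higher with a log2 fold change of at least 1.

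*Crb3* is also the member for which depth matters most. By the estimated worth of 1 read, its wild-type values rest on about 30 and 39 reads, with 95% Poisson intervals of 0.366 to 0.773 and 0.498 to 0.958 FPKM, and its *rd7* values on about 198 and 268 reads, with intervals of 3.10 to 4.11 and 4.34 to 5.54 FPKM. The intervals of the genotypes are far apart. The estimate uses the annotated exonic length and covers counting error only. The worth of 1 read was taken from values within a preset window, so these read numbers and intervals are approximate. The mean of the wild-type libraries is under the filter of 1 FPKM, so the gene was tested because of its *rd7* level. Without that filter its adjusted p was 0.0391 from limma, and with a pseudocount of 1 in place of 0.1 the log2 fold change was 1.68, since a larger pseudocount shrinks the change of a low gene. It stayed called under every refit and with any library left out (log2 fold change 2.36 to 2.80).

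The loci beside *Crb3* were low or changed little. *Dennd1c*, which lies 140 bases after it on the other strand, was at 0.188 to 0.218 FPKM in *rd7* and 0.0837 to 0.106 FPKM in wild-type libraries, too low to be tested. *Slc25a23*, which lies 2413 bases before it, also on the other strand, and encodes a mitochondrial carrier, had a log2 fold change of 0.11 (95% confidence interval -0.0075 to 0.22, adjusted p = 0.108 from limma). The 3 genes whose pattern over the 4 libraries was nearest to that of *Crb3*, by the distance between centred log2 values, were *Mfsd7c* (distance 0.0651, a membrane transporter), *Hrasls* (0.197) and *Pygm* (0.272, muscle glycogen phosphorylase). *Mfsd7c* was at 3.31 and 4.78 FPKM in *rd7* and 0.532 and 0.670 FPKM in wild-type retinas. With 4 libraries such a likeness mostly says that a gene rose by a similar factor.

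*Crb1* (chromosome 1, 141094831 to 141273653, minus strand), the Crumbs gene mutated in human retinal dystrophies, was the most abundant of the family. It was at 46.7 and 51.1 FPKM in *rd7* and 44.7 and 45.8 FPKM in wild-type retinas. The groups did not overlap but lay close together. Its log2 fold change was 0.11 (95% confidence interval -0.04 to 0.26, adjusted p = 0.174 from limma), and its sign turned with every other scaling: -0.04 with median-ratio scaling, -0.02 with quantile normalization and -0.25 after the GC/length correction, under which it was called lower (adjusted p = 0.0283 from limma). Without *rd7* replicate 1 it was called higher (log2 fold change 0.18, adjusted p = 0.0159 from limma).

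*Crb2* (chromosome 2, 37631769 to 37654621, plus strand), whose protein acts beside CRB1 at the outer limiting membrane, was lower. It was at 13.1 and 13.2 FPKM in *rd7* and 16.2 and 16.3 FPKM in wild-type retinas. The difference of the means, 19.0% of the wild-type level (13.1 ± 0.0699 against 16.2 ± 0.0666 FPKM, SD, n = 2 each), was much larger than the spread within either genotype. The log2 fold change was -0.30 (adjusted p = 0.00651 from limma, standard error 0.05), and it lay between -0.46 and -0.33 with the 3 other scalings, called lower in each. The call was lost without wild-type replicate 1 (adjusted p = 0.0832 from limma) or wild-type replicate 2 (0.0742), at log2 fold changes of -0.31 and -0.30. The end of *Crb2* overlaps *Dennd1a* on the other strand, and reads there cannot be assigned if counting did not use strand, which is not given. *Dennd1a* had a log2 fold change of -0.04 (adjusted p = 0.62 from limma).

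Ratios of FPKM within a library do not depend on any factor common to all its genes, such as that of median-ratio scaling. Quantile normalization and the GC/length correction act gene by gene and can change them. With the latter the log2 fold changes of *Crb1* and *Crb2* were close to each other, at -0.25 and -0.33. The FPKM of *Crb1* was 3.57 and 3.87 times that of *Crb2* in *rd7*, against 2.76 and 2.81 times in wild-type retinas. It was 13.1 and 10.4 times that of *Crb3* in *rd7* and 82.2 and 65.3 times in wild-type retinas. Within the summed FPKM of the 3 genes, *Crb1* took between 72.8% and 73.9% in all 4 libraries. *Crb2* took 20.7% and 19.1% in *rd7* against 26.4% and 25.9% in wild-type retinas, and *Crb3* took 5.65% and 7.09% against 0.886% and 1.12%. *Crb3* thus remained the least abundant Crumbs transcript in every library.

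**Figure D2:**
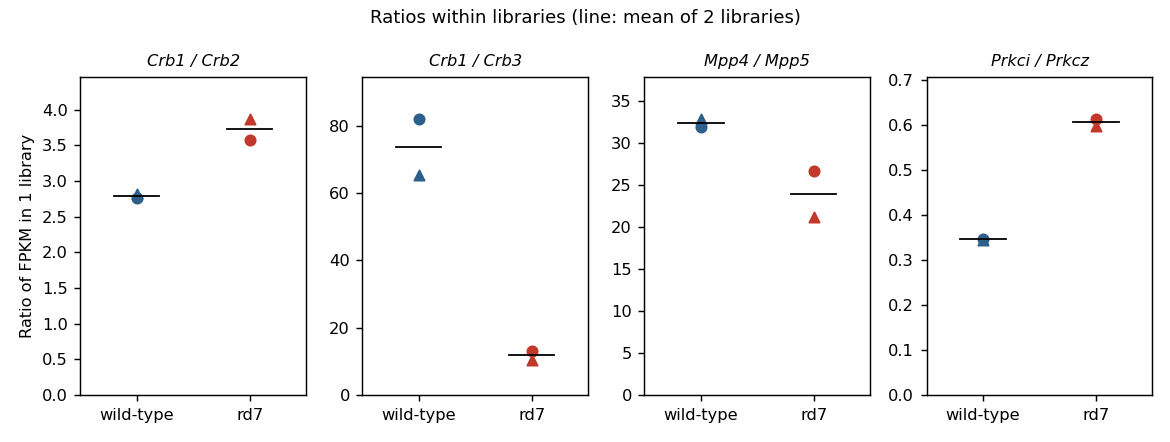
Ratio of FPKM between gene pairs within each library (circles replicate 1, triangles replicate 2, line the mean of 2 libraries), for wild-type and *rd7* retinas. *Crb1* to *Crb2* and *Prkci* to *Prkcz* are higher in both *rd7* libraries, and *Crb1* to *Crb3* and *Mpp4* to *Mpp5* are lower.

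The scaffold genes join Crumbs tails to the rest of the complex. *Mpp4* (chromosome 1, 59177779 to 59220233, minus strand) encodes a membrane-associated guanylate kinase of photoreceptors, found mainly at their synaptic terminals. It was at 222 and 196 FPKM in *rd7* and 244 and 243 FPKM in wild-type retinas, more than any other member and more than 98.3% of the genes tested. Both *rd7* values were below both wild-type values, and the *rd7* pools differed more from each other (SD 18.5 FPKM) than the wild-type pools did (0.651 FPKM). The log2 fold change was -0.22 (adjusted p = 0.0453 from limma, standard error 0.07), close to the threshold. It was between -0.41 and -0.27 and called lower with the 3 other scalings. The call was lost without wild-type replicate 1 (adjusted p = 0.227 from limma), without wild-type replicate 2 (0.201), without the filter on FPKM (0.216) and without a variance trend (0.0866), and without *rd7* replicate 2 the log2 fold change was -0.13.

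Several rod genes fell beside *Mpp4*. Beside 8.8% lower and 37.6% higher among all genes, 4 of 7 rod markers tested were lower and 0 higher. Their median log2 fold change was -0.42, with *Gnat1* (-0.79) and *Cnga1* (-0.56) the largest falls, and their summed FPKM was 9166 and 9875 in *rd7* against 12640 and 12890 in wild-type retinas. With either wild-type library left out, 1 of the 7 was called lower. The part of the rod level in the *Mpp4* difference was not tested.

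*Mpp5* (chromosome 12, 79849934 to 79941698), which encodes PALS1, the direct partner of the Crumbs tail, was at 8.34 and 9.28 FPKM in *rd7* and 7.66 and 7.38 FPKM in wild-type retinas. The groups did not overlap, but the log2 fold change of 0.22 missed the threshold (95% confidence interval 0.04 to 0.41, adjusted p = 0.0532 from limma). It passed without *rd7* replicate 1 (0.30, adjusted p = 0.00884 from limma) and when only genes with a mean of at least 5 FPKM were tested (adjusted p = 0.0474), and its sign turned with the GC/length correction (-0.16). Within each library the FPKM of *Mpp4* was 26.7 and 21.2 times that of *Mpp5* in *rd7* and 31.9 and 32.9 times in wild-type retinas.

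*Mpp3* (chromosome 11, 101860967 to 101888269), another guanylate kinase scaffold of the outer limiting membrane, was at 11.7 and 11.6 FPKM in *rd7* and 10.94 and 10.96 FPKM in wild-type retinas. Its log2 fold change was 0.09 (95% confidence interval -0.04 to 0.22, adjusted p = 0.217 from limma). *Inadl* (chromosome 4, 98062517 to 98386294), which encodes the multi-PDZ scaffold PATJ, was at 4.29 and 4.59 FPKM against 4.29 and 4.40 FPKM. Its groups overlapped, with a log2 fold change of 0.03 (95% confidence interval -0.16 to 0.22, adjusted p = 0.777 from limma), and it was called lower with the GC/length correction (-0.28, adjusted p = 0.0401 from limma). For both genes the sign turned with each of the 3 other scalings. Neither showed a change that held across scalings.

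The PAR complex holds the kinase that phosphorylates the Crumbs and basolateral proteins. *Prkci* (chromosome 3, 30894693 to 30951662), which encodes the atypical protein kinase C iota, was at 13.5 and 14.7 FPKM in *rd7* and 10.3 and 10.2 FPKM in wild-type retinas. Both *rd7* pools were above both wild-type pools. The log2 fold change was 0.45 (adjusted p = 0.00405 from limma, standard error 0.07), or 0.30 under median-ratio scaling and 0.29 under quantile normalization, called higher in each. With the GC/length correction it was 0.13 and not called (adjusted p = 0.205 from limma), and it also missed the threshold without the filter on FPKM (adjusted p = 0.0503) and without wild-type replicate 1 (0.0534).

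The paralog *Prkcz*, which encodes the zeta isoform, moved the other way. It was at 21.9 and 24.6 FPKM in *rd7* and 29.7 and 29.6 FPKM in wild-type retinas. Its log2 fold change was -0.35 (adjusted p = 0.00995 from limma, standard error 0.07). The call was lost without the filter on FPKM (adjusted p = 0.0942 from limma) and with either wild-type library left out. The ratio of *Prkci* to *Prkcz* was 0.615 and 0.598 in *rd7*, against 0.347 and 0.345 in wild-type retinas, with a narrow spread within each genotype. *Prkcz* stayed the more abundant of the pair in every library.

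*Pard3* (chromosome 8, 129587956 to 130136186), which encodes the scaffold that recruits PAR6 and the kinase to junctions, was at 4.59 and 4.49 FPKM in *rd7* and 3.47 and 3.57 FPKM in wild-type retinas. Its log2 fold change of 0.36 was past the threshold on the deposited scale (adjusted p = 0.0135 from limma, standard error 0.08). The call did not hold with median-ratio scaling (0.21, adjusted p = 0.0725), quantile normalization (0.15, adjusted p = 0.15) or the GC/length correction (0.02, adjusted p = 0.822), nor without wild-type replicate 1 (adjusted p = 0.136) or wild-type replicate 2 (0.0947), all from limma. *Pard6a* (chromosome 8, 108225054 to 108227394), the adaptor between PAR3, CDC42 and the kinase, was at 12.8 and 13.5 FPKM in *rd7* and 12.3 and 12.9 FPKM in wild-type retinas. Its groups overlapped, and the log2 fold change of 0.06 (95% confidence interval -0.09 to 0.21, adjusted p = 0.448 from limma) turned negative with median-ratio scaling and quantile normalization. Both loci beside *Pard6a* were called lower, *Acd*, which lies 58 bases before it on the other strand (-0.31), and *E130303B06Rik*, which lies 157 bases after it (-0.47).

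**Figure D3:**
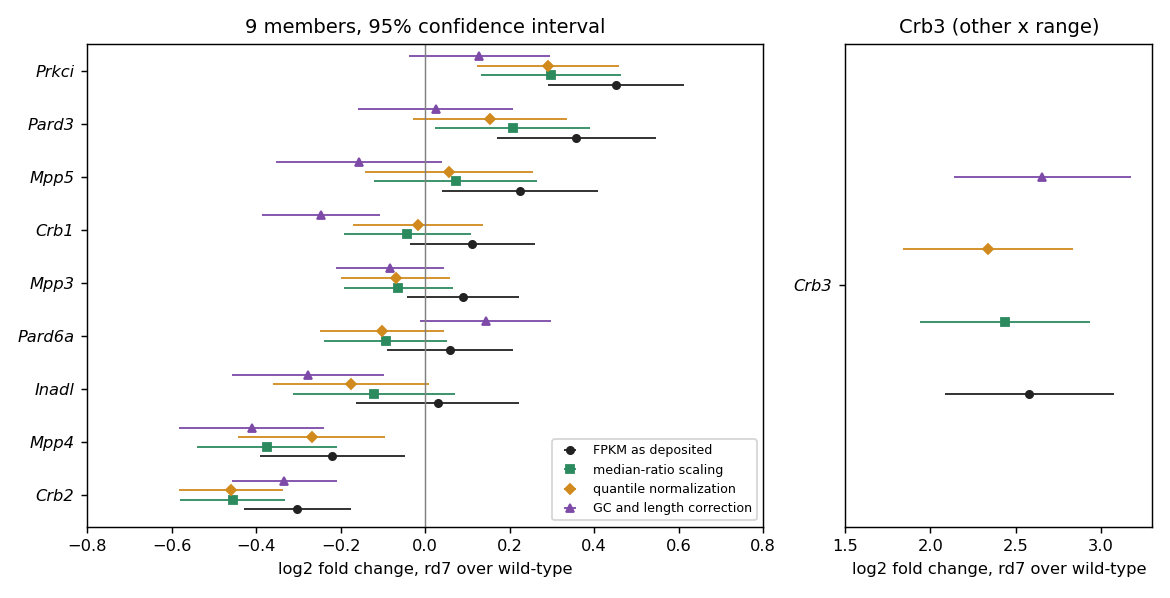
Log2 fold change of each member (points) with its 95% confidence interval (bars) from limma, on the FPKM as deposited and under 3 other scalings, with *Crb3* on an x range of its own. The intervals of *Crb3*, *Crb2* and *Mpp4* stay on 1 side of 0 under all 4, those of *Pard3* and *Prkci* cross 0 with the GC/length correction, and that of *Pard3* also with quantile normalization.

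Several other genes of the Crumbs and PAR complexes were also called. The list, like the members, was drawn up with earlier results of these data known. Of 17 listed genes 16 were tested (*Pard3b* was under the filter). Beside 37.6% higher and 8.8% lower among all genes, 10 were higher and 2 lower, with a median log2 fold change of 0.37 against 0.15. With median-ratio scaling 6 were higher and 2 lower (19.7% and 19.6% of all genes), and with the GC/length correction 4 and 2 (12.4% and 15.0%). Fewer of the list were called with either wild-type library left out. The largest rises were those of *Mpp6* (0.80, adjusted p = 0.000846 from limma), a PALS-family scaffold, *Wwc1* (0.79, adjusted p = 0.00317), which encodes the Hippo pathway protein KIBRA, and *Amot* (0.73, adjusted p = 0.0253), which encodes the PATJ partner angiomotin. *Mpp6* was at 11.3 and 11.8 FPKM in *rd7* and at 6.60 FPKM in both wild-type libraries, and it and *Wwc1* stayed called under both median-ratio scaling and the GC/length correction. *Amot* was not called under either (0.59, adjusted p = 0.0519, and 0.44, adjusted p = 0.133, from limma). Its wild-type mean of 0.777 FPKM is under the filter of 1 FPKM, so *Amot* was tested because of its *rd7* level. Without that filter it was not called (adjusted p = 0.106 from limma). The 2 lower genes were *Prkcz* and *Mpdz* (-0.38, adjusted p = 0.00551 from limma), which encodes the PATJ paralog MUPP1. *Mpdz* was at 13.9 and 14.9 FPKM in *rd7* and 18.4 and 19.1 FPKM in wild-type retinas. It too missed the threshold without the filter on FPKM (adjusted p = 0.0539 from limma) and with either wild-type library left out.

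*Pard6b* and *Lin7a* were singled out after their values were seen. *Pard6b*, a paralog of *Pard6a*, was at 17.9 FPKM in both *rd7* libraries and 10.7 and 10.9 FPKM in the wild-type libraries (log2 fold change 0.73, adjusted p = 0.000807 from limma). *Lin7a*, which encodes a small scaffold that binds PALS proteins, was at 41.9 and 42.0 FPKM against 26.6 and 27.5 FPKM (0.63, adjusted p = 0.000907). In both genes the *rd7* libraries were nearly equal and clearly above the wild-type libraries, and both stayed called under both median-ratio scaling and the GC/length correction, although the log2 fold change of *Lin7a* was only 0.25 with the latter.

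Basolateral polarity genes, which oppose the apical complexes, moved in both directions. Of 12 genes 11 were tested (*Dlg5* had a failed estimate). Beside 37.6% higher and 8.8% lower among all genes, 4 were higher and 4 lower, with a median log2 fold change of -0.02 against 0.15. The number of higher genes is near what the table as a whole gives. *Dlg2* (0.48), *Mark1* (0.41) and *Dlg1* (0.37) were the largest rises and *Stk11* (-0.34), *Mark2* (-0.31) and *Dlg4* (-0.30) the largest falls. *Dlg4*, which encodes PSD-95 and is abundant at photoreceptor terminals, was at 175 and 161 FPKM in *rd7* and 207 and 205 FPKM in wild-type retinas. With the GC/length correction 0 were higher and 4 lower (12.4% and 15.0% of all genes). Without wild-type replicate 1 the counts were 1 and 0, and without wild-type replicate 2 they were 2 and 1.

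Many junction genes rose. Of 24 adherens and tight junction genes 21 were tested, and 13 were higher and 0 lower, with a median log2 fold change of 0.40, where 37.6% of all genes were higher and their median was 0.15. *Cdh1*, the epithelial cadherin, *Tjp3* and *Ocln* were under the filter. The largest rises were *Pvrl3* (0.97, adjusted p = 0.00237 from limma), which encodes nectin-3, *Jam3* (0.84, adjusted p = 0.000669), which encodes a junctional adhesion molecule, and *Ctnnd1* (0.64, adjusted p = 0.00189), which encodes p120-catenin. *Pvrl3* was at 5.66 and 6.99 FPKM in *rd7* and 3.17 and 3.13 FPKM in wild-type retinas. *Jam3* was at 20.7 FPKM in both *rd7* libraries and 11.2 and 11.9 FPKM in the wild-type libraries. All 3 stayed called under both median-ratio scaling and the GC/length correction. The list had 12 higher and 2 lower genes under the first (19.7% and 19.6% of all genes) and 7 and 0 under the second (12.4% and 15.0%).

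Genes of the apical membrane, whose ERM proteins tie microvilli to actin, also rose on the deposited scale. Beside 37.6% higher and 8.8% lower among all genes, 6 of 8 genes were higher and 0 lower. Their median log2 fold change was 0.28, against 0.15 for all genes, led by *Cd44* (0.90), *Msn* (0.56) and *Ezr* (0.48). *Cd44*, the hyaluronan receptor of Müller cell microvilli, was at 2.36 and 3.67 FPKM in *rd7* and 1.52 and 1.56 FPKM in wild-type retinas. *Msn*, which encodes moesin, was at 8.15 and 10.3 FPKM against 6.05 and 6.30 FPKM. This count depended on the scaling and on the wild-type libraries. It was 3 with median-ratio scaling, 1 (*Ezr*) with the GC/length correction, 0 without wild-type replicate 1 and 1 without wild-type replicate 2.

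**Figure D4:**
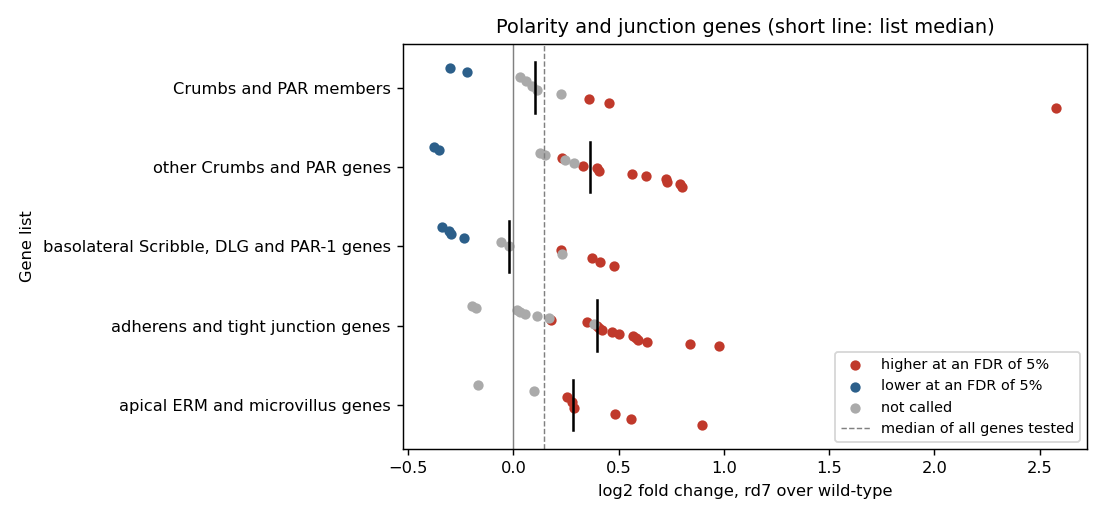
Log2 fold change of each tested gene in the polarity and junction lists, colored by its call at an FDR of 5% on the deposited scale, with the list median as a short line and the median of all genes tested as a dashed line. The members are spread around that median apart from *Crb3* at 2.58, and the junction list has a median of 0.40.

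Markers of several cell types moved with genotype and are given here beside the polarity genes, to be read against the 37.6% of all genes called higher and 8.8% called lower. Müller cell markers, from the glia that form 1 side of the outer limiting membrane, had 7 of 10 higher and 0 lower, with summed FPKM of 1666 and 1627 in *rd7* against 1400 and 1438 in wild-type retinas, and *Aqp4* (0.67) and *Abca8a* (0.65) the largest rises. Cone markers had 8 of 10 higher and 0 lower, with summed FPKM of 4517 and 4809 against 1453 and 1497 and *Gnat2* and *Pde6c* the largest rises (3.17 each). Inner retinal neuron markers had 7 of 10 higher and 0 lower (715 and 653 against 603 and 598), led by *Trpm1* (0.78) and *Vsx1* (0.70). Pigment epithelium markers had 5 of 6 tested higher and 0 lower (73.0 and 62.0 against 38.4 and 23.9), led by *Rgr* and *Dct* (1.27 each). *Best1* and *Lrat* of that list were under the filter. The mean of *Best1* was lower in *rd7* (0.0903 against 0.207 FPKM) and that of *Lrat* higher (0.999 against 0.28 FPKM), each without overlap. Reactive Müller cell genes set the *rd7* pools apart from each other, with sums of 18.4 in replicate 1 and 62.1 in replicate 2 against 16.0 and 16.4, and 1 of 7 was called higher (*Socs3*) and 0 lower. *Socs3*, *Tyrp1* and *Lhx1*, counted here as higher, had wild-type means of 0.877, 0.705 and 0.846 FPKM, under the filter of 1 FPKM. They were tested because of their *rd7* level. Several of these counts changed with the filter, the libraries or the scaling. With no filter, higher counts were 3 for Müller cells, 2 for inner retinal neurons and 0 for pigment epithelium and reactive Müller cell genes. Fewer genes were then called over the whole table as well. Without wild-type replicate 1 the higher count was 3 for Müller cells, 2 for inner retinal neurons and 0 for reactive Müller cell genes, and with median-ratio scaling it was 3 for inner retinal neurons. Without wild-type replicate 2 it was 4 for inner retinal neurons, 3 for pigment epithelium and 0 for reactive Müller cell genes, and without *rd7* replicate 1 it was 6 for the latter. The cone count was 8 or 9 in all of these. Without *rd7* replicate 2 the log2 fold change of *Crb3* was 2.36 and its call held.

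Markers of other epithelia bear on *Crb3* because it is best known from such tissue. Of the 10 markers, *Krt14* and *Cldn4* were listed at 0 in all 4 libraries, and *Epcam*, *Krt5*, *Krt8*, *Krt12*, *Esrp1* and *Grhl2* were under the filter. Their summed FPKM was lower in *rd7* (14.3 and 11.6) than in wild-type retinas (32.5 and 31.9), and *Krt18*, which made up most of that sum, had a log2 fold change of -1.74 (limma adjusted p = 6.11e-05). The other markers went in both directions. *Krt8* (0.332 against 0.199 FPKM) and *Krt12* (0.520 against 0.402 FPKM) had higher means in *rd7*, without overlap of the groups. *Esrp1* (0.504 against 0.421 FPKM) and *Krt5* (0.0353 against 0.0155 FPKM) were higher with overlap. *Grhl2* was lower without overlap (0.0517 against 0.0689 FPKM), and *Epcam* was lower with overlap (0.0633 against 0.0939 FPKM). *Cldn7*, which was tested, was also lower with overlap (3.36 against 3.80 FPKM, log2 fold change -0.25, adjusted p = 0.516 from limma). Microglial markers had 2 of 4 tested higher and 0 lower (12.5 and 13.8 against 9.70 and 9.91, with *P2ry12* and *Csf1r* called). *P2ry12*, with a wild-type mean of 0.796 FPKM, was tested because of its *rd7* level. Vascular markers had 1 of 5 higher and 0 lower (47.8 and 33.4 against 27.2 and 29.9, with *Kdr* called). Lens markers had 0 of 3 tested called (13.6 and 30.6 against 25.1 and 53.9). Blood markers had 2 of 4 tested lower and 0 higher (73.4 and 151 against 248 and 287, with *Hbb-b1* and *Alas2* called). *Alas2*, with an *rd7* mean of 0.906 FPKM, was tested because of its wild-type level. With no filter, 1 microglial marker was higher, and 0 vascular and 0 blood markers were called. Without *rd7* replicate 2, 4 vascular markers were higher and 3 lens markers lower, without wild-type replicate 1 the microglial count was 0, and with either wild-type library left out 1 blood marker was lower. Relative to the wild-type mean, *Crb3* was at 5.75 and 7.88 in the *rd7* libraries, above the summed level of every one of these lists. Such a sum follows its most abundant genes and is not the change of each marker. The cone markers *Gnat2* (9.06-fold) and *Pde6c* (9.01-fold) rose more than *Crb3* (6.82-fold), and the other cone markers rose less or did not rise. The parts of the cell types in the differences of the polarity genes were not tested.

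**Figure D5:**
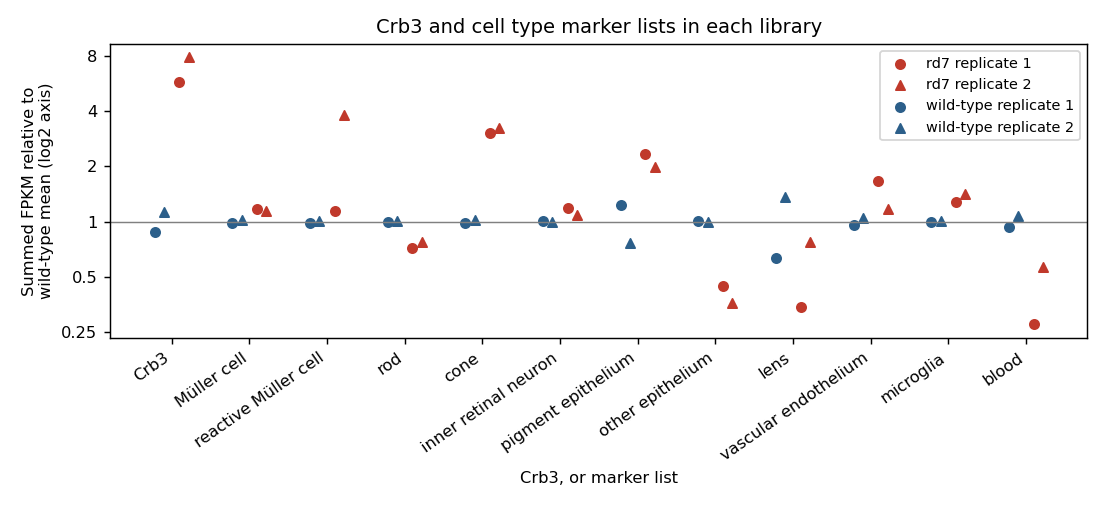
FPKM of *Crb3* and summed FPKM of each marker list in the 4 libraries, relative to the mean of the wild-type libraries (log2 axis, circles replicate 1, triangles replicate 2). *Crb3* at 5.75 and 7.88 lies above the summed cone list at 3.06 and 3.26, although *Gnat2* and *Pde6c* of that list rose more than *Crb3*. The other epithelium list lies below 1 at 0.444 and 0.36.

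The mutated gene differed in level between the genotypes. *Nr2e3* (chromosome 9, 59790578 to 59797886) was at 2493 and 1589 FPKM in *rd7* and 385 and 394 FPKM in wild-type retinas, and these values do not tell mutant from normal transcripts. Depth estimated from the lowest values lay between 34870000 and 35600000 reads per library. The preset window of 0.02 to 0.036 FPKM times kb holds this estimate near its middle, so it cannot show whether depths were alike. The members other than *Crb3* rested on about 622 reads (*Pard6a*) to 26680 reads (*Mpp4*) per library.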

How the data were processed

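RNA-seq libraries of *rd7* and wild-type retinas were compared as 2 against 2 pools, with groups taken from the labels. Single reads of 50 bp were mapped by the authors to mm9 with TopHat 1.4.1, and the deposited FPKM per gene and library were computed by the authors with Cufflinks 1.3.0. FPKM divides out length and depth but not library composition. The deposited table of the authors' Cuffdiff comparison (pooled FPKM, fold changes, p-values and q-values) was not used. Loci were matched by symbol and position to GENCODE vM1 on the same build (93.8% of 22095), which gave exonic length, GC content and strand. Positions count the first base as 1.

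Values were taken as log2(FPKM + 0.1). The 12655 genes whose FPKM averaged at least 1, with a successful status in all libraries, entered 1 fit in R 4.3.3. It used limma 3.58.1 with moderated variances that followed a trend on expression, two-sided p-values, Benjamini-Hochberg adjustment over these genes and an FDR of 5%, and had no block. An exact permutation test of 2 against 2 libraries cannot reach that threshold. Alternatives were a pseudocount of 1 or 0.01, no filter, a mean of at least 5 FPKM, median-ratio scaling, quantile normalization, a correction of each library by splines of GC content and log length with 4 degrees of freedom each, no variance trend, a replicate block, an FDR of 1%, and each library left out in turn. Whether counting used strand is not given in the sources used here. The worth of 1 read was estimated from the lowest values of genes with a single transcript longer than 800 bp, in a window of 0.02 to 0.036 FPKM times kb. Promoter windows of 250 bases ended before the most upstream annotated start within 200 bases of the deposited start. Summaries were computed in Python 3.11.15, and limma was tested on simulated data.

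The members and gene lists were chosen with earlier results of these data known. Named genes were all members, up to 3 called rises and 3 called falls without overlap per polarity list and up to 2 called changes per marker list. Also named were all 10 markers of other epithelia, pigment epithelium markers under the filter and called markers with a genotype mean under 1 FPKM. The loci beside a member and *Nr2e3* were named too. The 3 genes nearest in pattern to the member that changed most were named as well. *Pard6b*, *Lin7a*, *Zeb1*, *Zeb2*, *Snai1* and *Snai2* were added after values or sequences were seen. Some genes are not reported here.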

Additional observations from a re-analysis of the deposited data

How the results depend on the processing

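Of the members, *Crb3* and *Crb2* kept their direction and their call under every refit on all 4 libraries that they entered (8 for *Crb3*, which is under a mean of 5 FPKM, and 9 for *Crb2*). Members that were not called on the deposited scale turned sign with scaling, and the cause was not tested. The log2 fold change was -0.042 for *Crb1*, -0.0632 for *Mpp3*, -0.12 for *Inadl* and -0.0936 for *Pard6a* under median-ratio scaling, and -0.0167, -0.07, -0.18 and -0.10 with quantile normalization. With the GC/length correction it was -0.25 for *Crb1*, -0.0835 for *Mpp3*, -0.28 for *Inadl* and -0.16 for *Mpp5*, and without *rd7* replicate 2 it was -0.0194 for *Inadl*. Over the fits that left out 1 library, in which the lone library is assumed to vary like the others, it ranged from 0.05 to 0.18 for *Crb1*, -0.31 to -0.30 for *Crb2*, -0.31 to -0.13 for *Mpp4*, 0.15 to 0.30 for *Mpp5*, -0.0194 to 0.0781 for *Inadl*, 0.34 to 0.38 for *Pard3* and 0.39 to 0.52 for *Prkci*.

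Counts moved as follows, given as higher and lower. Over all genes, 4755 and 1114 became 2249 and 455 without a filter, 2492 and 2479 under median-ratio scaling, 2350 and 2404 with quantile normalization, 1524 and 1839 with the GC/length correction and 2582 and 446 at an FDR of 1%. For the members, 3 and 2 became 1 and 4 with the GC/length correction, and the lower count was 1 without a filter, without a variance trend and at an FDR of 1%. For other Crumbs and PAR genes, the higher count was 6 under median-ratio scaling and under quantile normalization and 4 with the GC/length correction, and the lower count was 0 without a filter. For basolateral genes, the counts were 1 and 1 without a filter, the higher count was 0 with the GC/length correction and the lower count was 2 at an FDR of 1%. For junction genes, the higher count was 8 without a filter and 7 with the GC/length correction, and the lower count was 2 under median-ratio scaling and under quantile normalization. For apical membrane genes, the higher count was 2 without a filter and at an FDR of 1%, 3 at a mean of at least 5 FPKM and under median-ratio scaling, 0 with quantile normalization and 1 with the GC/length correction, and the lower count was 1 under median-ratio scaling and under quantile normalization. With 1 library left out, the counts ranged from 1293 to 5484 and 224 to 1601 over all genes, 1 to 5 and 0 to 2 for members, 6 to 12 and 0 to 2 for other Crumbs and PAR genes, 1 to 5 and 0 to 4 for basolateral genes, 9 to 14 and 0 to 1 for junction genes, and 0 to 7 and 0 to 1 for apical membrane genes.

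The 2 libraries that carry the number 1 deviated from their groups independently (r = -0.0265 across genes), so a shared number was not taken as a pairing. A replicate block gave 4508 higher and 1091 lower genes over the whole table, and 3 and 2 among the members. Depth limits *Crb3* most, with about 30 reads in 1 wild-type library.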

Other observations

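Repressors that are known to bind the E-box shown in capitals in the *Crb3* window were read after that sequence had been seen, and are given as values only. *Zeb1* was at 11.9 and 11.2 FPKM in *rd7* and 9.92 and 10.8 FPKM in wild-type retinas (log2 fold change 0.16, adjusted p = 0.103 from limma). *Zeb2* was at 10.2 and 10.5 FPKM against 5.67 and 5.83 FPKM, higher in 2 of 2 *rd7* libraries (log2 fold change 0.84, standard error 0.06, adjusted p = 0.000807 from limma). *Snai1* was at no more than 0.107 FPKM and *Snai2* at no more than 0.726 FPKM in any library, both under the filter.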
